A study of Mus musculus with 2 samples.

Results

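Of the 32285 genes in the deposited matrices, 8 genes of apoptotic cell clearance are described here. They are the receptor kinase genes Axl and Mertk, their ligand genes Gas6 and Pros1, the bridging protein gene Mfge8, the phosphatidylserine receptor gene Timd4, the integrin subunit gene Itgav and the engulfment gene Elmo1. The genes were chosen by symbol, and each of the 8 matched 1 row. They were measured in a fibrosarcoma implanted under the skin of WT C57BL/6 mice, the genotype that both libraries share. The tumors were digested with collagenase b and dnase I at 37 degrees C for 45 min, freed of red cells and passed over magnetic columns. The iron-positive library holds the eluate that the column retained, and the iron-negative library holds the flowthrough. One library per fraction was made with the 10x Genomics single cell 3' v3 kit, so the values below carry no replicate error, no test and no p-value. The labels give neither the age nor the number of the mice, and the data hold no measure of iron.

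Dying cells expose phosphatidylserine on their surface, and phagocytes recognise it either directly or through soluble proteins that bridge the lipid to a receptor. Gas6 and protein S, the product of Pros1, bridge phosphatidylserine to the TAM receptor kinases, and Mfge8 bridges it to integrins that contain the alpha v subunit encoded by Itgav. Timd4 binds the lipid itself, and Elmo1 acts inside the cell with Dock1 to activate Rac1 during engulfment. Mertk is known as the receptor of steady-state clearance in tissue macrophages, while Axl is known for its induction by interferon in inflammation.

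In mm10 coordinates of the GENCODE annotation, Axl lies on chromosome 7 (25757273 to 25788705, minus strand), Mertk on chromosome 2 (128698956 to 128802894, plus strand), Gas6 on chromosome 8 (13465374 to 13494490, minus strand) and Pros1 on chromosome 16 (62854307 to 62929346, plus strand). Mfge8 lies on chromosome 7 (79133768 to 79149060, minus strand), Timd4 on chromosome 11 (46810800 to 46844332, plus strand), Itgav on chromosome 2 (83724397 to 83806916, plus strand) and Elmo1 on chromosome 13 (20090596 to 20608353, plus strand). All are protein-coding genes. Gas6 overlaps the gene Tmem255b of the opposite strand, which had 213 UMIs in kept iron-positive cells and 3 UMIs in kept iron-negative cells. Elmo1 contains the sense intronic transcript Gm47664, counted as its own row with 1340 UMIs in iron-positive and 1915 UMIs in iron-negative cells.

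RefSeq promoter windows of build GRCm38.p6, which run from 250 bases before to 50 bases after a gene's start, were found for all 8 genes (9 windows, since Elmo1 has a pair). The windows of Gas6 (chr8:13494486-13494785, minus strand), Mertk (chr2:128698665-128698964, plus strand) and Pros1 (chr16:62854057-62854356, plus strand) are shown because these genes were high in resident-like phagocytes. The window of Axl (chr7:25788684-25788983, minus strand) is shown because Axl was low in those cells. Each is written 5′ to 3′ on the gene's strand, and capitals mark GGGCGG, the GC box, or its complement CCGCCC.
Gas6: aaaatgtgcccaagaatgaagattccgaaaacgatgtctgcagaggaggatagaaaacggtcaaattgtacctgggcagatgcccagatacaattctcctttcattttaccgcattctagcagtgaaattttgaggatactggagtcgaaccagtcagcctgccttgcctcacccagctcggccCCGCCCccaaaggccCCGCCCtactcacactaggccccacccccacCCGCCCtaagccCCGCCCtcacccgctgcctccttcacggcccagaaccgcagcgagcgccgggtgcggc
Mertk: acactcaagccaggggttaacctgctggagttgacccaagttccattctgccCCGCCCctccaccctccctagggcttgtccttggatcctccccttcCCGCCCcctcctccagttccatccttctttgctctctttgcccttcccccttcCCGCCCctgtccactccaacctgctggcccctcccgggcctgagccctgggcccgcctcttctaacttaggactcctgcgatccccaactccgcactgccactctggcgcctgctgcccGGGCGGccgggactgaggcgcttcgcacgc
Pros1: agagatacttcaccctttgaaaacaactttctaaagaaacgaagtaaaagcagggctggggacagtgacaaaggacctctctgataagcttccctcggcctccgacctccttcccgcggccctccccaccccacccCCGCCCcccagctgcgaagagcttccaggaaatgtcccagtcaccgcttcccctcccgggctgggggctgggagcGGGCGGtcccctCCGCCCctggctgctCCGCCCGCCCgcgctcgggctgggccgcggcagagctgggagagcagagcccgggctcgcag
Axl: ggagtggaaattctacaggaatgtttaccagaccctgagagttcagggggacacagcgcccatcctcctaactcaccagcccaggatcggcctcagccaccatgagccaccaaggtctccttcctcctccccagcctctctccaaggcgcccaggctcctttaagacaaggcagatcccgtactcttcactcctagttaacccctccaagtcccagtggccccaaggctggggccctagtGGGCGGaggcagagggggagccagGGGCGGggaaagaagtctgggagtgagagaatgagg
The GC box occurred in 4 positions of the Gas6 window, 4 of the Mertk window, 5 of the Pros1 window, counting overlaps, and 2 of the Axl window. It was present in 7 of the 9 windows of the 8 genes, against 35.7% of the 32851 RefSeq windows of this length. The PU.1 core GAGGAA, searched on both strands, was found once in the Axl window and not in those of Gas6, Mertk and Pros1, and 28.3% of all windows hold it. Neither the AP-1 letters TGANTCA (7.81% of windows) nor the antioxidant response letters TGACNNNGC (12.4%) were present in any of the 9 windows. Of the 9 windows, that of Timd4 held the nuclear receptor motif AGGTCA (16.3%). Such matches are letters in a window and were not measured as sites.

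The iron-positive library had 13668 barcodes and 129921053 UMIs, and 12143 of its cells, at a median depth of 7349 UMIs, passed the filters. The iron-negative library had 10124 barcodes and 132796517 UMIs, and 9403 of its cells, at a median depth of 13017 UMIs, passed. The libraries shared 85 barcodes (0.622% of iron-positive and 0.840% of iron-negative barcodes). Leaving these out changed no call of the 8 genes in phagocytes, resident-like or mesenchymal cells, the sets in which it was run. In resident-like cells no log2 ratio of a called gene changed. No barcode of that state was left out, so the check could not move a call there. Marker gates placed 9927 iron-positive and 9178 iron-negative cells with the phagocytes, 710 and 16 with the endothelial cells, 119 and 6 with the pericytes or smooth muscle cells, and 296 and 67 with the mesenchymal cells. The mesenchymal class may hold tumor cells and fibroblasts alike, since both express collagen genes. Phagocytes of at least 2000 UMIs were placed in 1 of 11 states, named by their marker genes, when they passed the gate of that state alone. Levels are CPM of the summed UMIs of a class or state, with exact 95% Poisson intervals, and ratios are iron-positive over iron-negative with exact intervals. All intervals cover counting error only. The 3' protocol counts molecules at their ends, so the levels are not scaled by gene length.

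Over all kept cells, Axl was lower and Mfge8 higher in the iron-positive library. Axl had 12969 UMIs (104 CPM) in iron-positive cells and 22352 UMIs (171 CPM) in iron-negative cells, a ratio of 0.606 (0.593 to 0.619). Mfge8 had 7060 UMIs (56.4 CPM) in iron-positive cells and 1267 UMIs (9.69 CPM) in iron-negative cells, a ratio of 5.82 (5.48 to 6.18). A gene was called when its ratio was at least 1.5-fold in either direction with an interval that excluded 1 and its level reached 10 CPM in either library. Mfge8 reached 10 CPM in the iron-positive library alone. Among the 7 members that reached 10 CPM, 1 was called higher and 1 lower, where 9.29% and 3.98% of all 8241 such genes were called higher and lower. Gas6 had 117 CPM in iron-positive and 101 CPM in iron-negative cells, and Pros1 had 28.5 CPM and 19.3 CPM, short of the 1.5-fold limit at 1.48. Mertk (72.6 CPM in iron-positive, 79.5 CPM in iron-negative cells), Itgav (86.8 and 110 CPM) and Elmo1 (51.4 and 69.5 CPM) were not called either.

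The members differed in the classes that held their UMIs. In the iron-positive library, phagocytes held 94.7% of the Gas6 UMIs, 93.7% of the Mertk UMIs, 82.3% of the Axl UMIs and 55.9% of the Pros1 UMIs. The same shares in the iron-negative library were 99.4% for Gas6, 99.6% for Mertk, 96.1% for Axl and 92.5% for Pros1. For Mfge8, phagocytes held 12.9% of the iron-positive UMIs and 59.4% of the iron-negative UMIs. Pericytes held 18.5%, mesenchymal cells 19.1%, endothelial cells 19.9% and cells past the gates of 2 classes 29.2% of the iron-positive Mfge8 UMIs. Endothelial cells were 5.85% of kept iron-positive cells and 0.170% of kept iron-negative cells, and pericytes were 0.980% and 0.0638%.

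**Figure D1:**
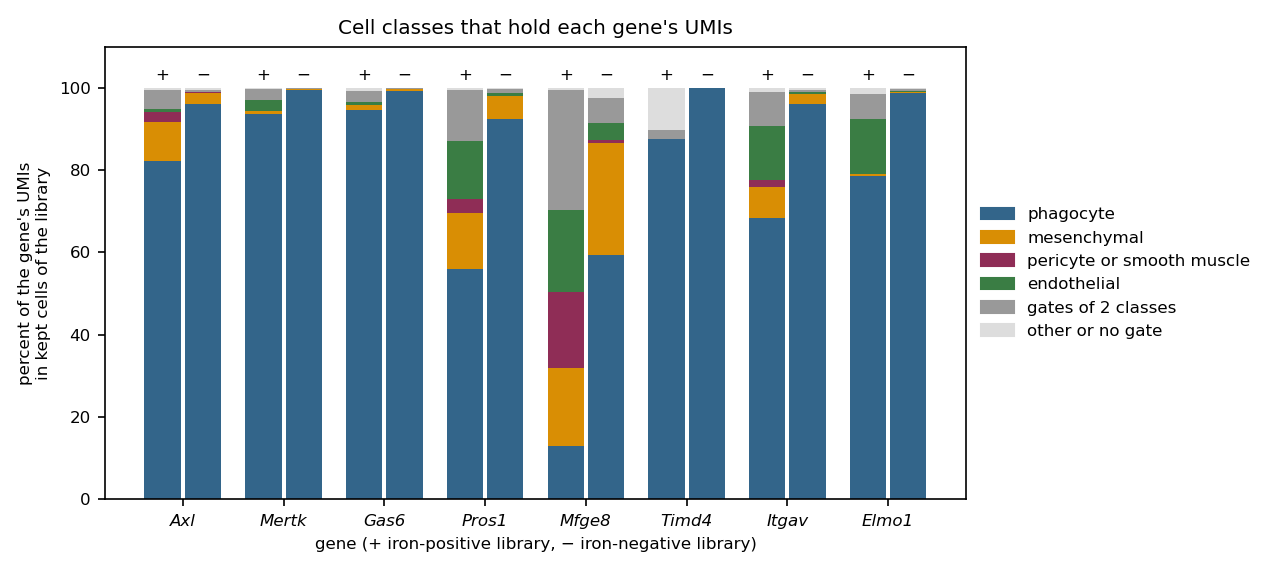
Share of each gene's UMIs (vertical axis, percent of its UMIs in the kept cells of a library) by cell class, with the iron-positive library as the left bar and the iron-negative library as the right bar of each pair; there are no error bars. Phagocytes held 12.9% of the iron-positive Mfge8 UMIs and 94.7% of the iron-positive Gas6 UMIs.

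Axl was highest in antigen-presenting and Fcrls Cx3cr1 phagocytes and lowest, among phagocytes, in resident-like cells. In the MHC class II-high state it had 240 CPM (225 to 256) in iron-positive cells and 251 CPM (242 to 261) in iron-negative cells. In the Fcrls Cx3cr1 state it had 233 CPM (215 to 252) in iron-positive and 223 CPM (214 to 232) in iron-negative cells, so the intervals of these leading states overlapped in the iron-positive library but not in the iron-negative library. The resident-like state, gated on Cd209f, Cd209g, Cd163, Lyve1 and Marco, had 38.0 CPM (32.5 to 44.1) in iron-positive and 43.4 CPM (33.1 to 56.01) in iron-negative cells. The Mmp12 state, at 43.3 CPM (37.5 to 49.8) in iron-positive cells, did not differ from the resident-like state beyond the intervals. Outside the phagocytes, Axl had 208 CPM in iron-positive pericytes and 176 CPM in iron-positive mesenchymal cells, but 5.23 CPM (4.08 to 6.61) in endothelial cells.

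Mertk had another order among the states and was low in stroma. Resident-like phagocytes had 201 CPM (188 to 214) of Mertk in the iron-positive and 118 CPM (101 to 138) in the iron-negative library, the highest of the states in both. The next state, with type I interferon genes, had 122 CPM in iron-positive and 99.2 CPM in iron-negative cells, and its interval overlapped that of the resident-like state in the iron-negative library alone. The lowest phagocyte level was 42.8 CPM in iron-positive Il1r2 Ifitm1 Ltb4r1 phagocytes, and the same state was lowest in the iron-negative library at 48.4 CPM. Mertk had 18.2 CPM in iron-positive endothelial cells, 9.53 CPM in iron-positive pericytes and 8.35 CPM in iron-positive mesenchymal cells.

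The ratio of Axl to Mertk UMIs, each summed over the same set of cells, does not depend on the scaling. Phagocytes had 1.25 Axl UMIs per Mertk UMI in the iron-positive library and 2.08 in the iron-negative library. In resident-like cells there were 0.189 Axl UMIs per Mertk UMI in iron-positive and 0.366 in iron-negative cells, while MHC class II-high cells had 3.05 and 2.70. After thinning each phagocyte to 1000 UMIs, which left out 1227 iron-positive and 285 iron-negative shallower cells, 795 of 8700 iron-positive phagocytes had an Axl UMI, 694 had a Mertk UMI and 58 had both. Of 8893 iron-negative phagocytes, 1204 had an Axl UMI, 702 had a Mertk UMI and 111 had both. The counts of cells with both were not compared with those expected from the separate shares. In iron-positive endothelial cells, thinned alike, 0.877% had an Axl UMI and 1.93% a Mertk UMI, against 9.14% and 7.98% of the iron-positive phagocytes.

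Gas6 was the most abundant member in resident-like phagocytes. It reached 622 CPM (599 to 645) in iron-positive resident-like cells and 394 CPM (362 to 429) in iron-negative ones. The Retnla Cbr2 state came next with 222 CPM (200 to 245) in iron-positive and 255 CPM (239 to 272) in iron-negative cells, apart from the resident-like state in both libraries. Il1r2 Ifitm1 Ltb4r1 phagocytes were lowest with 14.4 CPM in iron-positive and 16.1 CPM in iron-negative cells. After thinning, 44.4% (39.4 to 49.6) of iron-positive and 28.7% (19.9 to 39.0) of iron-negative resident-like cells had a Gas6 UMI, against 1.75% (0.844 to 3.20) of iron-positive endothelial cells. The unthinned shares were 92.1% and 80.9% of resident-like cells, with median depths of 10907 UMIs in the iron-positive and 12301 UMIs in the iron-negative library, and 7.32% of the iron-positive endothelial cells, with a median of 4034 UMIs.

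Pros1, the gene of protein S, had its highest levels in resident-like phagocytes and in stroma, but most of its phagocyte UMIs lay outside the resident-like state. That state held 425 of 1996 Pros1 UMIs of iron-positive phagocytes and 56 of 2331 of iron-negative phagocytes. Its level was 93.3 CPM (84.6 to 103) in iron-positive resident-like cells, 76.9 CPM in iron-positive pericytes, 70.7 CPM in iron-positive mesenchymal cells and 37.5 CPM in iron-positive endothelial cells. The first of these overlapped the second in interval, and the second the third. In the iron-negative library, mesenchymal cells had 44.3 CPM and resident-like cells 41.2 CPM, and these intervals overlapped. All other phagocyte states had at most 18.7 CPM in the iron-positive library and at most 29.0 CPM in the iron-negative library. The latter level, in iron-negative Retnla Cbr2 cells (23.8 to 35.1), overlapped in interval that of the iron-negative resident-like cells (31.1 to 53.5). Outside the single states, phagocytes under 2000 UMIs had 36.6 CPM in the iron-positive and 19.9 CPM in the iron-negative library. Cells past several state gates had 25.8 and 21.4 CPM, and cells of no state gate had 15.6 and 17.0 CPM.

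Mfge8 was a stromal transcript. Iron-positive pericytes had 828 CPM (784 to 874) of it, or 10.9 UMIs per cell, iron-positive mesenchymal cells had 194 CPM (184 to 205) and iron-positive endothelial cells had 105 CPM (99.8 to 111), with no overlap among these intervals. Phagocyte states ranged from 3.94 to 19.96 CPM in the iron-positive library and from 2.67 to 8.48 CPM in the iron-negative library. After thinning, 47.5% of iron-positive pericytes had a Mfge8 UMI, against 0.989% of iron-positive and 0.495% of iron-negative phagocytes and 2.56% (0.0649 to 13.5) of the 39 iron-positive T or NK cells.

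Itgav was found in every state and class at similar levels, between 58.8 and 139 CPM over the 14 iron-positive sets, while Elmo1 was found in phagocytes and endothelial cells and was low in the other stroma. Itgav had 139 CPM in iron-positive and 153 CPM in iron-negative Fcrls Cx3cr1 phagocytes, the highest state in both libraries, and 123 CPM in iron-positive pericytes, 119 CPM in iron-positive mesenchymal and 107 CPM in iron-positive endothelial cells. Elmo1 also peaked in the Fcrls Cx3cr1 state, at 108 CPM (95.7 to 121) in iron-positive and 106 CPM (99.9 to 113) in iron-negative cells. Endothelial cells of the iron-positive library had 64.1 CPM of Elmo1, while mesenchymal cells had 5.04 CPM and pericytes 1.27 CPM (0.154 to 4.59).

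**Figure D2:**
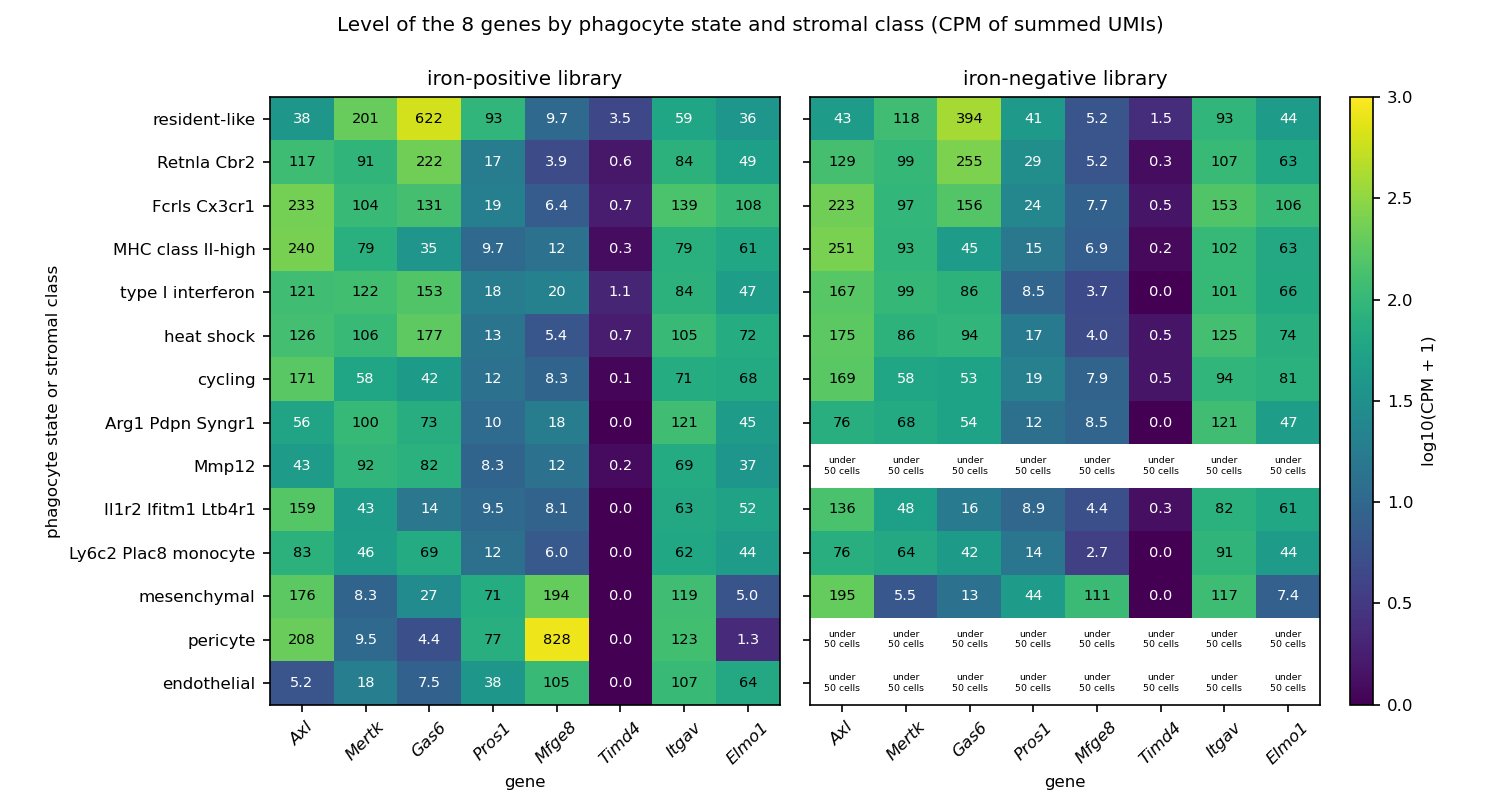
Levels of the 8 genes (columns) in CPM of summed UMIs, printed in each cell and coloured as log10(CPM + 1), for 11 phagocyte states and 3 stromal classes (rows) in the iron-positive (left) and iron-negative (right) library; sets under 50 cells are left white. Gas6 and Mertk are highest in the resident-like row, Axl in the MHC class II-high and Fcrls Cx3cr1 rows, and Mfge8 in the pericyte row.

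Timd4, a marker of long-lived resident macrophages in several mouse tissues, was barely detected. It had 89 UMIs in 52 kept iron-positive cells and 56 UMIs in 34 kept iron-negative cells. One iron-positive cell that passed no class gate, with 13811 UMIs in total, held 9 of the 89. Phagocytes had 78 UMIs (0.850 CPM, 0.672 to 1.06) in the iron-positive library and 56 UMIs (0.447 CPM, 0.337 to 0.580) in the iron-negative library. Resident-like cells held 16 UMIs in 10 iron-positive cells (3.51 CPM, 2.01 to 5.70) and 2 UMIs in 1 iron-negative cell (1.47 CPM, 0.178 to 5.32), and these intervals overlap. No Timd4 UMI was found in iron-positive endothelial or mesenchymal cells, for which a count of 0 allows up to 0.224 CPM and 0.432 CPM (3 counts over the class). At this depth the gene was given no call, and its values below rest on few UMIs.

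The comparison of phagocytes asked whether the cells retained by the column differ from those that passed it in these genes. Axl, Itgav and Elmo1 were lower and Gas6, Mertk and Pros1 higher in iron-positive phagocytes, each by less than 1.5-fold. Axl had 116 CPM in iron-positive and 171 CPM in iron-negative phagocytes, a log2 ratio of -0.56 (-0.59 to -0.52), which placed it at percentile 0.933 of the genes measured. Gas6 had 151 CPM in iron-positive and 105 CPM in iron-negative phagocytes, a log2 ratio of 0.52 (0.49 to 0.56). Itgav had 80.9 CPM in iron-positive and 110 CPM in iron-negative phagocytes, and Elmo1 had 55.1 CPM and 71.7 CPM, with log2 ratios of -0.44 and -0.38. Mertk had 92.8 CPM in iron-positive and 82.5 CPM in iron-negative phagocytes, and Pros1 had 21.8 CPM and 18.6 CPM, with log2 ratios of 0.17 and 0.23. None of the 6 members at 10 CPM or more was called, where 2.37% of 7716 genes were called higher and 0.752% lower. Their median log2 ratio was -0.10, beside -0.11 over all genes measured. Axl passed 1.5-fold lower when each cell had equal weight (log2 ratio -0.72) and when cells were thinned (-0.67), and was at -0.20 with all states weighted equally. Scaling by the median ratio over genes, itself -0.11 on the log2 scale, put Gas6 at 0.63 and past 1.5-fold.

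Mfge8 in phagocytes stayed under 10 CPM in both libraries, with 909 UMIs (9.91 CPM) in iron-positive and 752 UMIs (6.00 CPM) in iron-negative cells, a ratio of 1.65 (1.498 to 1.82). Markers of stroma moved with it. The 13 mesenchymal markers, all detected in both libraries, summed to 86.4 CPM in iron-positive and 27.9 CPM in iron-negative phagocytes, and the 10 endothelial markers to 104 CPM and 68.7 CPM. The 9 pericyte markers summed to 16.5 CPM in iron-positive phagocytes and 3.32 CPM in iron-negative phagocytes, where Kcnj8, Notch3 and Higd1b were at 0. With 10% of each library's overall profile subtracted as free RNA, the log2 ratio of Mfge8 was -0.24 in place of 0.72. The 10% was a setting and was not estimated, and the profile subtracted held 56.4 CPM of Mfge8 in the iron-positive and 9.69 CPM in the iron-negative library. Free RNA and doublets were not told apart, and the cause of the Mfge8 difference in phagocytes was not tested.

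**Figure D3:**
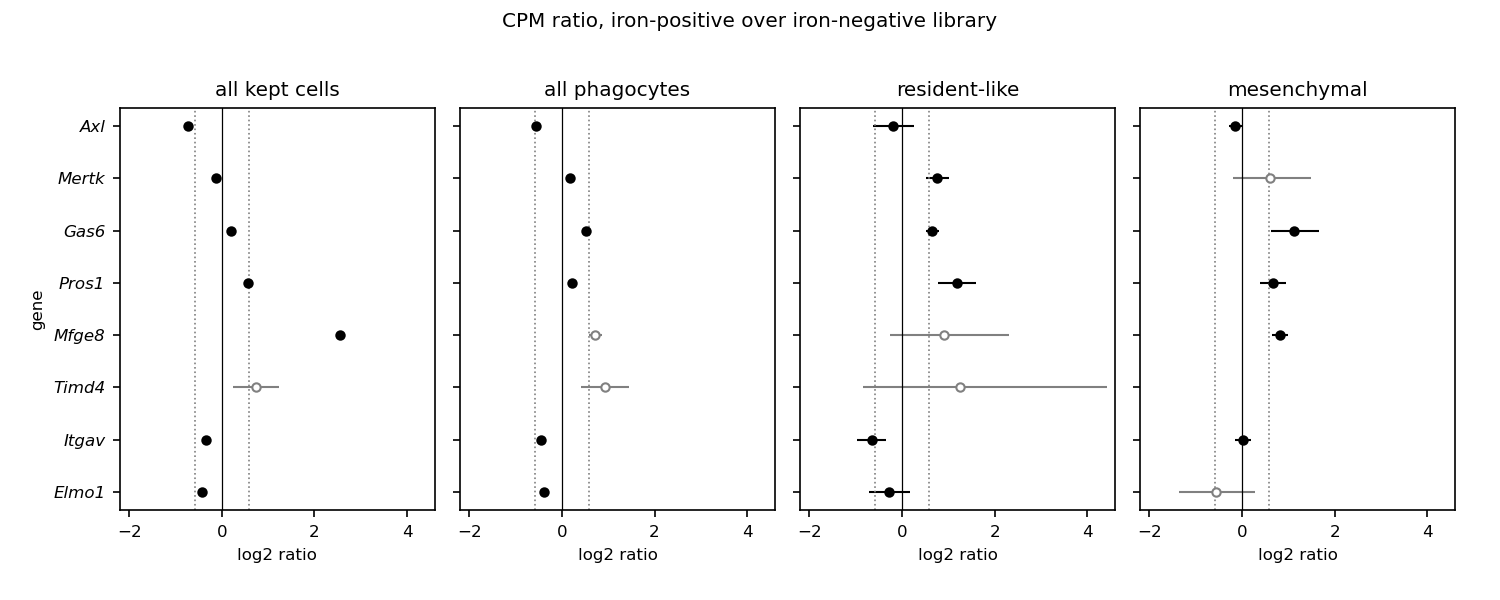
Log2 ratio of CPM, iron-positive over iron-negative (horizontal axis), of each gene in all kept cells, all phagocytes, resident-like phagocytes and mesenchymal cells, with exact 95% intervals for counting error; open points are genes under 10 CPM in both libraries, dotted lines mark 1.5-fold, and genes with 0 UMIs in a library are not drawn. Mfge8 stands apart in all kept cells, and Gas6, Mertk and Pros1 lie above 1.5-fold in resident-like cells.

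For Axl, ratios within the single states compared were closer to 1 than in the sum over phagocytes, but this did not hold for all other phagocytes. Of the 10 states with at least 50 cells in both libraries, none had Axl past 1.5-fold, and its log2 ratio ranged from -0.47 in the heat shock state to 0.22 in the Il1r2 Ifitm1 Ltb4r1 state. It was called lower among the cells past several state gates, with a log2 ratio of -0.68 (2.91% of genes called higher, 2.66% lower), and among the RNA-poor phagocytes under 2000 UMIs, with -0.71 (4.13% called higher, 17.7% lower). In the 2189 iron-positive and 2992 iron-negative cells of no state gate, the Axl log2 ratio was -0.42 (-0.48 to -0.36), which was not called. The MHC class II-high and Fcrls Cx3cr1 states, where Axl is highest, made up 2.98% and 2.36% of iron-positive phagocytes and 7.23% and 7.79% of iron-negative phagocytes. The part of these shares in the Axl ratio over all phagocytes was not tested. Gas6 was called higher in 4 of the 10 states. Its log2 ratio was 0.91 in heat shock cells (177 CPM in iron-positive, 94.1 CPM in iron-negative cells), 0.83 in type I interferon cells (153 and 86.2 CPM), 0.73 in Ly6c2 Plac8 monocytes (69.0 and 41.7 CPM) and 0.66 in resident-like cells. It was also just past 1.5-fold, at 1.502, in the cells of no state gate (1.42% of genes called higher, 0.316% lower). In 4 other states the Gas6 interval lay below 1, with the lowest log2 ratio, -0.35, in MHC class II-high cells. Itgav had a ratio below 1 in all 10 states, past 1.5-fold in the resident-like state. Among the RNA-poor phagocytes Itgav was also called lower, with 59.4 CPM in iron-positive and 94.7 CPM in iron-negative cells. Mfge8 reached 10 CPM in 3 states, each time in the iron-positive library alone, so that it could only be higher there, with 19.96 CPM in iron-positive and 3.70 CPM in iron-negative type I interferon cells, 17.5 and 8.48 CPM in Arg1 Pdpn Syngr1 cells and 12.0 and 6.88 CPM in MHC class II-high cells. In the 7 states under 10 CPM its ratio was 0.764 (0.271 to 1.90) in Retnla Cbr2, 0.832 (0.462 to 1.42) in Fcrls Cx3cr1, 1.05 (0.742 to 1.49) in cycling and 1.35 (0.640 to 2.85) in heat shock cells. It was 1.82 (0.899 to 3.83) in Il1r2 Ifitm1 Ltb4r1 cells, 1.87 (0.838 to 4.93) in resident-like cells and 2.23 (0.609 to 8.91) in Ly6c2 Plac8 monocytes, and all 7 intervals included 1. Mfge8 was also called higher in cells past several state gates, with 10.6 CPM in iron-positive and 6.22 CPM in iron-negative cells. The same call was made in RNA-poor phagocytes, with 14.7 CPM (33 UMIs) in iron-positive and 1.66 CPM (1 UMI) in iron-negative cells. As background, genes called higher and lower were 2.14% and 2.67% in the heat shock state, 3.71% and 3.92% in the type I interferon state, 2.66% and 3.60% in Ly6c2 Plac8 monocytes and 3.14% and 5.74% in the Arg1 Pdpn Syngr1 state. They were 0.557% and 1.98% in the MHC class II-high state, 0.667% and 0.717% in cycling cells, 1.52% and 2.13% in the Il1r2 Ifitm1 Ltb4r1 state, 1.73% and 3.05% in the Retnla Cbr2 state and 0.922% and 1.43% in the Fcrls Cx3cr1 state.

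Resident-like phagocytes were 3.81% (3.44 to 4.20) of iron-positive and 1.02% (0.828 to 1.25) of iron-negative phagocytes, and their levels of Mertk, Gas6 and Pros1 were higher in the iron-positive library. The log2 ratios were 0.76 (0.52 to 1.01) for Mertk, 0.66 (0.52 to 0.79) for Gas6 and 1.17 (0.77 to 1.61) for Pros1. Itgav was lower, with 58.8 CPM in iron-positive and 92.7 CPM in iron-negative cells, a log2 ratio of -0.66 (-0.97 to -0.34). Thus 3 of 6 measured members were called higher and 1 lower, where 4.25% and 6.52% of 7713 genes were called higher and lower in this state. The gate held 378 iron-positive and 94 iron-negative cells that differed in how far they passed it, with a median of 10.6 resident-like marker UMIs per 10000 in iron-positive and 5.84 in iron-negative cells. With a gate 4 times as high, which kept 253 iron-positive and 43 iron-negative cells, Mertk (0.63) and Pros1 (0.63) were still past 1.5-fold higher and Gas6 (0.30) was not, while Itgav (-0.90) and Elmo1 (-1.11) were past it on the lower side.

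Because the gate alone did not match the cells, phagocytes of at least 2000 UMIs were also ordered by their share of resident-like marker UMIs, in steps of 0, above 0 to 2, 2 to 5, 5 to 10, 10 to 20, and 20 or more per 10000. None of these markers is among the 8 genes. The steps did not match the cells in depth, since any marker UMI is a larger share of a shallow cell. Median UMIs along the steps were 10076, 13725, 7721, 9074.5, 9921 and 8670.5 in iron-positive cells. They were 13778, 16327, 8460, 9410.5, 9277 and 11593 in iron-negative cells. The part of depth in the ratios within steps was not tested. Gas6 climbed along the steps, with 80.5, 137, 406, 557, 672 and 942 CPM in iron-positive cells and 77.8, 191, 389, 544, 660 and 770 CPM in iron-negative cells. Within the steps from 2 to 20 the Gas6 ratios of both libraries were between 1.02 and 1.04, each with an interval that included 1, while the ratio was 0.714 (0.669 to 0.761) in the second step and 1.22 (1.10 to 1.36) in the last. Mertk climbed in both, with 78.7, 98.7, 153, 166, 198 and 224 CPM in iron-positive cells and 80.6, 88.8, 107, 112, 131 and 129 CPM in iron-negative cells. The Mertk ratio was 0.977 (0.944 to 1.01) in cells with no such marker UMI, 1.43 (1.22 to 1.68) in the third step and 1.73 (1.35 to 2.25) in the last. Pros1 had 12.5, 15.6, 33.7, 55.5, 95.2 and 202 CPM in iron-positive cells and 16.7, 23.8, 33.0, 43.4, 83.0 and 74.4 CPM in iron-negative cells. Its ratio was 0.753 (0.692 to 0.818) in the first step and 0.656 (0.543 to 0.791) in the second, then 1.02, 1.28 and 1.15 with intervals that included 1, and 2.72 (1.98 to 3.83) in the last step.

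Axl ran the other way. It had 133, 113, 48.1, 27.7, 21.6 and 19.5 CPM along the steps in iron-positive cells and 180, 144, 53.8, 39.5, 13.8 and 21.2 CPM in iron-negative cells. Its ratio was 0.736 (0.718 to 0.755) in cells with no resident-like marker UMI and 0.919 (0.473 to 1.93) in the last step, where 40 iron-positive and 12 iron-negative Axl UMIs were counted. Timd4 had 9.28 CPM (19 UMIs) in iron-positive and 7.08 CPM (4 UMIs) in iron-negative cells of the last step, against 0.352 CPM and 0.319 CPM in those of the first. Itgav and Elmo1 were also lower in the last step than in the first in both libraries, and Itgav had 31.3 CPM in iron-positive and 81.4 CPM in iron-negative cells of the last step, a ratio of 0.384 (0.259 to 0.573). The steps hold 5802, 913, 391, 234, 187 and 208 iron-positive cells and 7591, 593, 193, 114, 93 and 42 iron-negative cells. In the first step, the log2 ratio was 0.05 for Gas6, -0.03 for Mertk and -0.41 for Pros1, beside 0.52, 0.17 and 0.23 over all phagocytes.

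**Figure D4:**
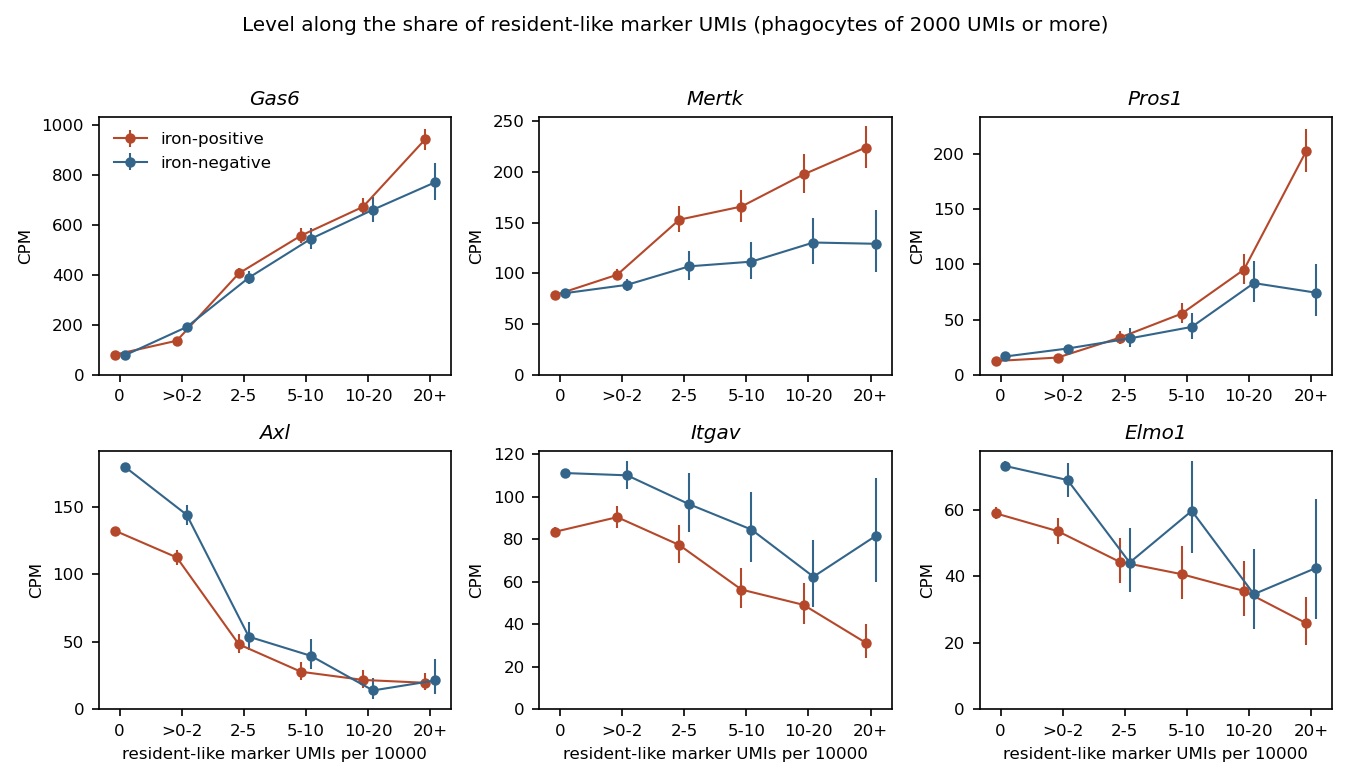
CPM (vertical axes) of 6 genes along the share of resident-like marker UMIs per 10000 (horizontal axes, steps of unequal width) in phagocytes of at least 2000 UMIs, with exact 95% Poisson intervals; red is the iron-positive and blue the iron-negative library. Gas6 reaches 942 CPM in iron-positive and 770 CPM in iron-negative cells of the last step, while Axl is at 19.5 CPM and 21.2 CPM there.

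In mesenchymal cells the ligand genes were higher in the iron-positive library. Mfge8 had 194 CPM in iron-positive and 111 CPM in iron-negative cells, a ratio of 1.75 (1.56 to 1.98). Pros1 had 70.7 CPM in iron-positive and 44.3 CPM in iron-negative cells, a ratio of 1.60 (1.32 to 1.94), and Gas6 had 27.2 CPM (189 UMIs) and 12.5 CPM (39 UMIs), a ratio of 2.17 (1.53 to 3.15). Axl, with 176 CPM in iron-positive and 195 CPM in iron-negative cells, and Itgav, with 119 and 117 CPM, were not called. So 3 of 5 measured members were called higher and none lower, where 10.0% of 8260 genes were called higher and 7.30% lower. The 11 phagocyte markers summed to 1148 CPM in iron-positive and 861 CPM in iron-negative mesenchymal cells. Gas6 had 151 CPM in iron-positive and 105 CPM in iron-negative phagocytes. The part of phagocyte RNA in the mesenchymal Gas6 levels was not tested.

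The mesenchymal cells of both libraries differed in their share of mesenchymal marker UMIs, with a median of 181 per 10000 in iron-positive and 56.4 per 10000 in iron-negative cells, and in depth, with medians of 17355 and 42928 UMIs. Among cells with at least 200 such UMIs per 10000 (135 iron-positive, 17 iron-negative), Mfge8 had 198 CPM in iron-positive and 194 CPM in iron-negative cells, Pros1 had 109 and 107 CPM and Gas6 had 49.3 and 47.0 CPM. All 3 ratios there lay between 1.02 and 1.05, with intervals that included 1, and Itgav was lower with 121 CPM in iron-positive and 188 CPM in iron-negative cells. Among cells with 50 to 200 such UMIs per 10000 (115 iron-positive, 19 iron-negative), Mfge8 had 255 CPM in iron-positive and 164 CPM in iron-negative cells, a ratio of 1.56 (1.27 to 1.92), Pros1 had 54.8 and 60.4 CPM, a ratio of 0.906 (0.637 to 1.31), and Gas6 had 34 UMIs in iron-positive and 0 UMIs in iron-negative cells. Among cells with 10 to 50 such UMIs per 10000 (46 iron-positive, 31 iron-negative), the ratios were 0.985 for Mfge8, 0.825 for Pros1 and 0.938 for Gas6, with intervals that included 1. The part of marker share and depth in the class as a whole was not tested. The log2 ratio of Gas6 was 2.62 with 10% free RNA subtracted. It was -1.22 without the 5% of cells with most UMIs, which left 24 iron-negative mesenchymal cells. Pros1 (0.23) and Mfge8 (0.52) lost their calls with gates at 2 times the threshold, and Pros1 also lost its call with cells of 2 gates kept (0.42) and without the 5% of cells with most UMIs (0.54).

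Of 67 other genes of the pathway in 6 lists, 52 reached 10 CPM in phagocytes. Among these 52, 4 were called higher and 2 lower, where 2.37% and 0.752% of all genes measured in phagocytes were, and their median log2 ratio was -0.16 beside -0.11 over all genes. Among 15 receptor genes, 9 were measured. Cd36, a scavenger receptor that also binds oxidised lipid, had 206 CPM in iron-positive and 26.8 CPM in iron-negative phagocytes, while the phosphatidylserine receptor Stab1 (220 and 361 CPM) and Itgb5, the partner of Itgav in an Mfge8 receptor (122 and 184 CPM), were called lower. In the list of find-me, don't-eat-me and shedding genes, 1 of 8 measured genes was called, S1pr1, a receptor for the find-me lipid sphingosine 1-phosphate, with 36.6 CPM in iron-positive and 8.24 CPM in iron-negative phagocytes. Iron-positive endothelial cells had 399 CPM of S1pr1. The endothelial marker sum was 104 CPM in iron-positive and 68.7 CPM in iron-negative phagocytes, a smaller fold difference than the 4.44 of S1pr1. The part of endothelial RNA in the S1pr1 difference was not tested. Cd36 was at 120 CPM in iron-positive endothelial cells, below the 206 CPM of iron-positive phagocytes. The part of endothelial RNA in the Cd36 level of phagocytes was not tested either.

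None of the 7 measured bridging and opsonin genes and none of the 10 measured genes of the uptake machinery was called. The complement genes C1qa and C1qb, whose products coat dying cells, had 3813 and 2758 CPM in iron-positive and 4715 and 3430 CPM in iron-negative phagocytes. Tgm2, a transglutaminase that supports uptake, had 435 CPM in iron-positive and 525 CPM in iron-negative phagocytes, and Rac1, the GTPase downstream of Elmo1, had 365 and 423 CPM. In the digestion list, 1 of 14 measured genes was called, the lysosomal acid lipase gene Lipa, with 159 CPM in iron-positive and 95.4 CPM in iron-negative phagocytes. Of 4 measured genes of TAM signalling output, the gene of the cytokine Il10 was called higher, with 15.5 CPM in iron-positive and 9.92 CPM in iron-negative phagocytes. Il10 and S1pr1 reached 10 CPM in the iron-positive library alone. In mesenchymal cells, 47 of the 67 genes were measured, and 9 were called higher and 1 lower, where 10.0% and 7.30% of all genes were. The differences in marker share and depth between the mesenchymal cells of the libraries, given above, apply to this count too, and their part was not tested.

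**Figure D5:**
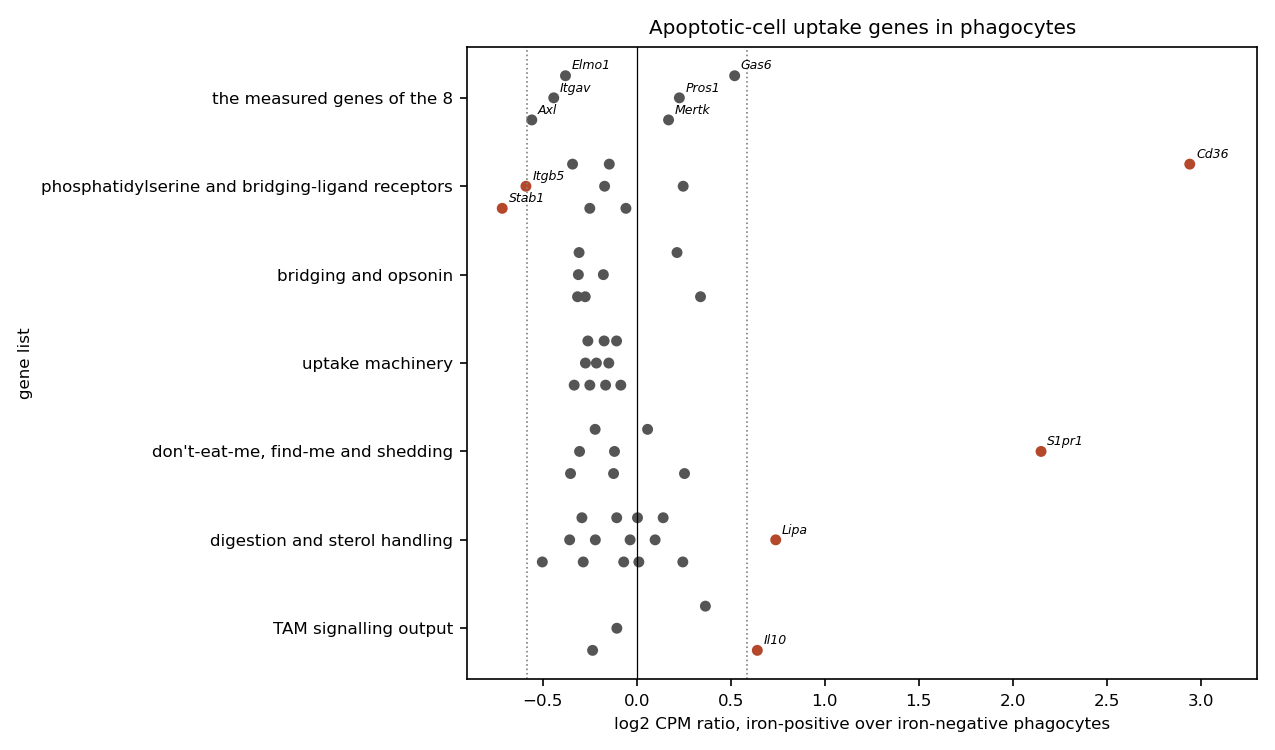
Log2 CPM ratio, iron-positive over iron-negative phagocytes (horizontal axis), of every gene at 10 CPM or more in the 6 lists and of the 6 measured genes of the 8, in rows by list; red points were called, dotted lines mark 1.5-fold, the vertical offset within a row carries no value and no error is drawn. Cd36, S1pr1, Lipa and Il10 lie above and Stab1 and Itgb5 below the 1.5-fold lines.

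Profiles were also compared over 23 sets, the classes and states with at least 100 cells taken per library, which share libraries and therefore depth. Pearson correlations of log2(CPM + 1) across these sets are descriptions. The sets include the endothelial, pericyte and mesenchymal cells of the iron-positive library and leave out the iron-negative resident-like and Mmp12 states, which had too few cells. Mertk was lower and Mfge8 higher in these stromal classes than in any phagocyte state, so their correlations also hold the difference between stroma and phagocytes. Gas6 and Mertk had an r of 0.82, Mertk and Mfge8 of -0.79, and Axl and Mertk of 0.08. The genes most like Mertk were Akr1a1 (0.97), Atp6v1a (0.95) and Lamp1 (0.95), those most like Gas6 were Pdgfc (0.96), Wwp1 (0.95) and Plekhm1 (0.93), and those most like Axl were Itgb5 (0.93), Cdk14 (0.88) and Usp2 (0.84). For Pros1 they were Nfia (0.92), Cnrip1 (0.91) and Lima1 (0.89), for Mfge8 Emp2 (0.95), Adamts12 (0.95) and Lamb2 (0.95), and for Elmo1 Arhgap25 (0.95), Cxcr4 (0.95) and Ptpn18 (0.94). Itgav had weaker likenesses, with Mmp14 (0.75), Copa (0.73) and Pmepa1 (0.73), and the sparse Timd4 had Fxyd2 (0.80), Reps2 (0.79) and Ncoa4 (0.78).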

How the data were processed

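Per the file headers and values, the authors deposited UMI counts of genes by barcodes with no normalization. The feature and barcode files hold other content, the row and column names, as the authors deposited them. Reads were processed with Cell Ranger and build mm10, per the submitters' processing notes, which name version 3.1.0. The headers of the matrices name version 5.0.0 instead, and this was not resolved. The annotation and its strand setting are not given in the sources used here, and coordinates came from GENCODE vM21 by Ensembl ID.

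Cells with at least 200 genes and at most 15% mitochondrial UMIs were kept. Phagocytes needed at least 60 phagocyte marker UMIs per 10000, other classes 10 per 10000, and both at least 3 marker UMIs. Cells past 2 gates were left out, except that the higher share decided between pericytes and mesenchymal cells. A state needed 3 marker UMIs and a share past the 90th percentile over both libraries. Gate thresholds were set after seeing the data. The genes and lists were chosen with earlier results of these data known. No doublet caller was run, so doublets remain. UMIs were summed per set, and log2 ratios used each count plus 0.5. Ratio intervals are exact conditional binomial intervals, and intervals of shares are exact binomial. The ratio procedure was tested on simulated data that held counting error only. These data held no variation among cells, gates or libraries, so the test could not show how such variation affects the calls. From each pathway list the text names every gene of at least 10 CPM past 1.5-fold in phagocytes, otherwise the 2 with the highest CPM, and for each member the 3 genes of highest correlation among genes with at least 50 CPM. Intervals came from scipy 1.17.1, sums from numpy 2.4.6 and pandas 2.3.3 in Python 3.11.15, and figures from matplotlib 3.10.9. Alternatives to the filters, gates, scaling, weighting and depth were run, with effects given at the end.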

Additional observations from a re-analysis of the deposited data

Results flagged for a closer look

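Pros1 was called in opposite directions in different phagocyte states. Its log2 ratio, iron-positive over iron-negative, was 1.17 in resident-like cells (93.3 and 41.2 CPM, from 425 and 56 UMIs) and 1.06 in type I interferon cells (17.9 and 8.51 CPM, from 34 and 23 UMIs). It was -0.72 in Retnla Cbr2 cells (17.4 and 29.0 CPM, from 31 and 107 UMIs), -0.63 in cycling cells (12.2 and 19.0 CPM, from 88 and 197 UMIs) and -0.59 in MHC class II-high cells (9.69 and 14.7 CPM, from 38 and 163 UMIs). Genes called lower were 3.05% of those measured in the Retnla Cbr2 state, 0.717% in the cycling state and 1.98% in the MHC class II-high state. In type I interferon cells and in MHC class II-high cells, Pros1 reached 10 CPM in the higher library alone. The difference between the states was not tested, since each library is 1 sample.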

How the results depend on the processing

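No paired analysis was possible because each fraction has 1 library, so no replicate could be left out either. In phagocytes the count of members past 1.5-fold was 0, and it was 1 with cells of 2 gates kept (Mfge8 higher), 1 with scaling by the median ratio (Gas6 higher), 1 with states weighted equally (Mfge8 higher), 2 with a mean of each cell's CPM and 2 with thinning to 1000 UMIs (in both, Mfge8 higher and Axl lower). The calls from equal weights and from per-cell means rest on the fold alone, with no interval. In mesenchymal cells the count was 3, and it was 0 with thinning and 1 (Itgav lower) among cells with a marker share of at least 200 per 10000. It was 2 with gates at 2 times the threshold (Gas6 higher, Elmo1 lower), where Pros1 (0.23) and Mfge8 (0.52) lost their calls, and 3 with cells of 2 gates kept, where Mertk (0.65) was called in place of Pros1 (0.42). It was 2 at a minimum of 50 CPM, which leaves out Gas6. With 10% free RNA subtracted, the log2 ratio of Gas6 in mesenchymal cells was 2.62. It was -0.44 with thinning and -1.22 without the 5% of cells with most UMIs. The last setting had the same count of 3 but with 1 member higher and 2 lower. The cause was not tested. Over the alternatives, the log2 ratio in phagocytes ranged from -0.72 to -0.20 for Axl, from -0.55 to -0.33 for Itgav, from -0.54 to -0.21 for Elmo1, from 0.05 to 0.63 for Gas6, from -0.03 to 0.28 for Mertk and from -0.41 to 0.49 for Pros1. The settings chosen after seeing the data were the higher resident-like gate, the mesenchymal share limit, phagocytes with no resident-like marker UMI and the removal of shared barcodes. Depth limits Timd4, with under 100 UMIs a library, and the mesenchymal comparison, with 67 iron-negative cells.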
